A study of Homo sapiens and Mus musculus with 20 samples.

Results

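The effect of sodium propionate (NaPr) on open chromatin was set against that of sodium butyrate (NaBu) in SW480, an established line from a human colorectal adenocarcinoma. All 12 SW480 libraries of the series were used, out of 20 samples in all. They fall into 4 groups of 3 libraries. Cells given 10 mM NaPr for 12 to 16 h are compared with untreated cells of the same experiment (here Pr-untreated), and cells given 1 mM NaBu for 12 to 16 h with the untreated cells of a separate experiment (Bu-untreated). Each reaction took 50000 viable cells. The 12 lists of open chromatin peaks were merged into 252173 regions, and 140937 of them, each marked in 3 or more libraries, were tested. The quantity of interest is the difference of 2 differences, namely the change from Pr-untreated to NaPr minus the change from Bu-untreated to NaBu. It is called higher where the NaPr change lay above the NaBu change, and lower where it lay below. The labels date the 2 experiments differently and the doses are unequal, so compound, dose, date and starting culture cannot be told apart in any value given here. Nothing in the labels says whether the 3 libraries of a group came from separate cultures, so p-values measure only the spread between these libraries.

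Bacteria of the gut ferment fibre to short fatty acids, among them propionate and butyrate, and the carbon chain of propionate is the shorter. Both enter cells through monocarboxylate transporters, can be broken down to acetyl or propionyl units, and inhibit class I and class II histone deacetylases, butyrate more strongly than propionate. ATAC-seq measures open chromatin through the insertion of adapters by the Tn5 transposase. A peak is a stretch where insertions exceed the background, and open stretches are mostly promoters and enhancers to which transcription factors bind.

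Accessibility is given as a percentile rank. In each library the regions were ordered by the highest −log10 p of their peaks, and the rank is the percentage of tested regions with a lower value, set to 0 where the library has no peak. A change is a difference of mean ranks, in percentile points with its standard error (SE). Each list was numbered up to 300000 peaks in order of p, and the weakest peak listed had a −log10 p between 3.37 and 9.38, so a rank of 0 means only that no peak passed the limit of that list. The libraries held 108442 to 144398 peak intervals, and the background pileup recovered from the lists was 0.936 to 2.35 tags in the NaPr experiment and 2.11 to 3.03 in the NaBu experiment. Of 10 markers of colorectal epithelium, 8 had a peak within 1 kb of a start in all 12 libraries, EPCAM, CDH1, KRT8, KRT18, KRT19, VIL1, CDX2 and HNF4A, and each library had a peak at 8 to 10 of them. Of 5 blood markers PTPRC, CD3E and SPI1 had no peak in any library, and 2 were marked in each library. Of 5 endothelial markers 1 to 3 were marked in a library and KDR and TEK in none, whereas 3 to 5 of the 5 fibroblast markers were. The untreated cultures were not alike. Pr-untreated and Bu-untreated differed in 53.1% of tested regions, more than either compound changed.

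The sequences below are shown because large contrasts of the report lie on them. Each is the 200 bases of the hg38 plus strand around the highest summit of its region, in lower case, with every match to a searched motif in capitals. The first, upstream of TMEM196 at chr7:19944840-19945039, holds a CEBP (TTGCNNCAA) and a TEAD (ACATTCC) motif. The second lies near EDN3 at chr20:59291857-59292056 with an AP-1, a SNAI/ZEB E-box (CAGGTG) and a STAT motif, the third upstream of EPCAM at chr2:47340121-47340320 with an AP-1 motif overlapping 2 E-boxes, the fourth near SYTL2 at chr11:85824077-85824276 with a RUNX and an NF-Y motif, and the last in the intron of SSPN at chr12:26239671-26239870, where none of the 20 searched motifs matched.
TMEM196 upstream: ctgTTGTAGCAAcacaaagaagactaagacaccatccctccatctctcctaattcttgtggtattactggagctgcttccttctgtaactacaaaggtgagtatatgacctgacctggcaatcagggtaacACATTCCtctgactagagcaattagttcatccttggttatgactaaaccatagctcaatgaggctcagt
EDN3 upstream: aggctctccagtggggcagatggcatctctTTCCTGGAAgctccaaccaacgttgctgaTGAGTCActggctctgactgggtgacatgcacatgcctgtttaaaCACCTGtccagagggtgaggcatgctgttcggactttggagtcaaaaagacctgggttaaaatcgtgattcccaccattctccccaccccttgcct
EPCAM upstream: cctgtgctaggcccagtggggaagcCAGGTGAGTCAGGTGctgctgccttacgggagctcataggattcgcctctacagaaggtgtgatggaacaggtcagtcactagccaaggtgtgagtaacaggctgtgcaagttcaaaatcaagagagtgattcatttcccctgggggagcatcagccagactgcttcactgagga
SYTL2 near: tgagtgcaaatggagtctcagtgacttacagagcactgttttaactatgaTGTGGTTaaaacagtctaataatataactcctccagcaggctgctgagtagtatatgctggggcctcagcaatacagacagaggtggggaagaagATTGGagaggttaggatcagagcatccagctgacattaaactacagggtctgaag
SSPN intron: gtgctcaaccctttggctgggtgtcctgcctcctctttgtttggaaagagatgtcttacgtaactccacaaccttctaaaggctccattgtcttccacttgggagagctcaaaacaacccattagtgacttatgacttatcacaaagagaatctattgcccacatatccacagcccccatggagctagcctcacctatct

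The compounds differed at 21193 regions, 15.0% of those tested (limma on the ranks, adjusted p below 0.05). The NaPr effect was the higher at 10704 regions (7.59%) and the lower at 10489 (7.44%). Most of these were regions where 1 compound was called and the other was not. NaBu was called lower and NaPr not called at 7299 of them, NaBu higher and NaPr not called at 7338, NaPr higher and NaBu not called at 2736, and NaPr lower and NaBu not called at 2186. Each compound on its own was called higher at 6.27% (NaPr) and 14.6% (NaBu) of tested regions and lower at 5.10% and 13.1%. Where both compounds were called higher, NaPr moved the rank more at 220 regions and NaBu at 422, and where both were called lower NaBu moved it more at 223 and NaPr at 129. At 229 regions the compounds moved in opposite directions. Of the 5807 regions called for both compounds, 96.1% moved the same way.

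**Figure D1:**
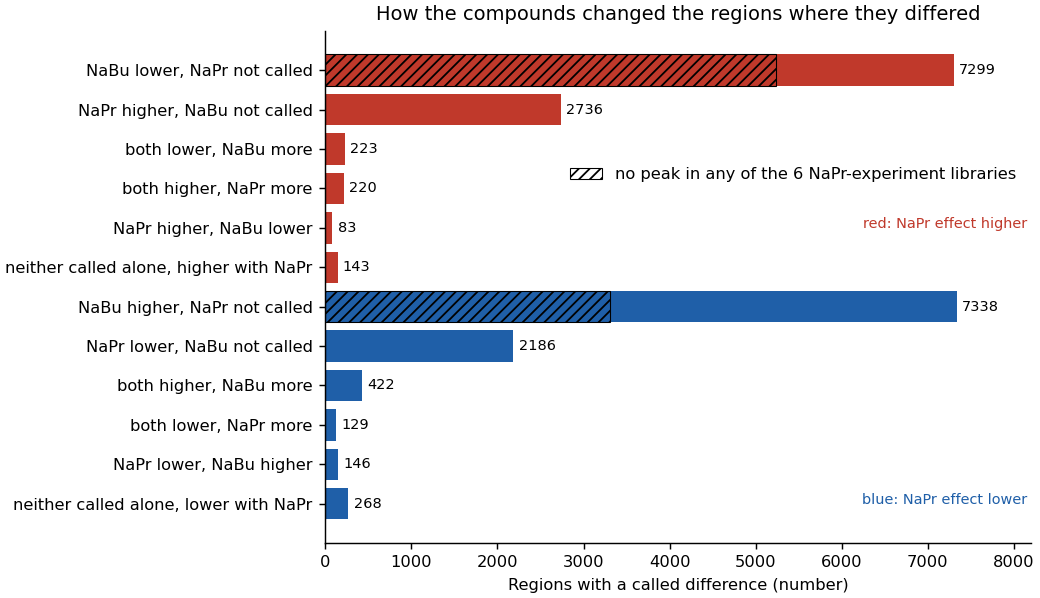
Number of regions with a called difference (horizontal axis) by the call for each compound alone, in red where the NaPr effect was the higher and in blue where it was the lower; hatching marks regions with no peak in any of the 6 libraries of the NaPr experiment. The longest bars are regions where NaBu was called and NaPr was not (7299 and 7338), and the bars for opposite changes hold 83 and 146.

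Many differences lay where 1 of the experiments had no peak at all. Of the 10704 regions with the higher NaPr effect, 5239 (48.9%) had no peak in any of the 6 libraries of the NaPr experiment, so no fall could be recorded there, and 1589 (14.8%) had none in the NaBu experiment. Among the 10489 lower ones 3304 (31.5%) had no peak in the NaPr experiment and 1301 (12.4%) none in the NaBu experiment. Pr-untreated and Bu-untreated were themselves called different at 75.2% of the higher and 62.5% of the lower regions, against 53.1% of all tested regions. The treated groups lay farther apart than the untreated groups at only 34.3% of the higher and 47.9% of the lower regions. A fall or a rise could be recorded for both compounds at the 55584 regions with a peak in all 6 untreated libraries. There the difference was called higher at 4.85% (2696 regions) and lower at 6.43% (3574), both compounds were called higher together at 1872 and lower together at 2274, and opposite changes numbered 44 with NaPr higher and 113 with NaPr lower. Across these 55584 regions the 2 changes had a Spearman correlation of 0.559, against 0.356 over all tested regions, as a description of points that share libraries. Refitting on these regions alone, an alternative added once the data had been seen, gave 5251 called differences.

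**Figure D2:**
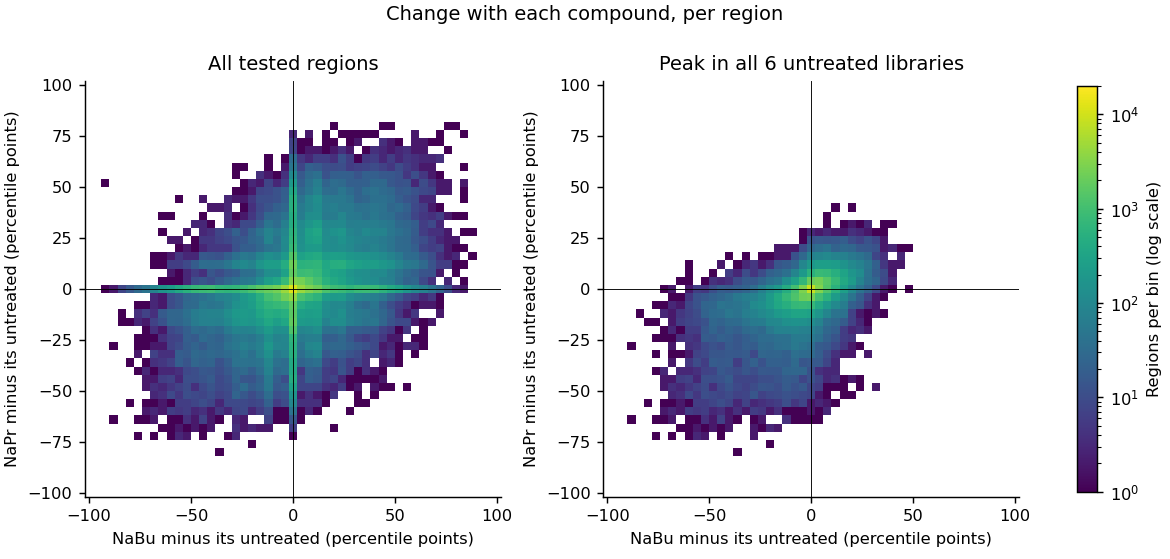
Change with NaBu (horizontal axis) against change with NaPr (vertical axis), both in percentile points, as the number of regions per bin on a log colour scale, for all tested regions (left) and for the 55584 regions with a peak in all 6 untreated libraries (right). Regions at 0 for 1 compound form the bright cross on the left, and the isolated bin at the upper left is the BCL2L1 intron.

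Other ways of ranking changed these counts. Keeping the 50000 strongest intervals of each library left 13981 called differences, requiring a peak in at least 6 libraries left 9056, and testing only regions whose untreated ranks lay within 10 points of each other left 7891 (3322 higher and 4569 lower). On recovered tag counts, which exist for the 50620 regions with a peak in all 12 libraries, 7860 differences were called with scaling by the median (4145 higher, 3715 lower) and 1572 with scaling by the background (1119 higher, 453 lower). The median difference over all regions was 0.01 on the log2 scale with the former scaling and 0.11 with the latter. For each compound alone, scaling by the background called 4887 regions higher and 1780 lower with NaPr and 6892 and 8325 with NaBu, and ranking among regions with a peak called 13633 and 7139 with NaPr and 26920 and 16711 with NaBu. For NaBu scaling by the background turned the order of the main counts (20631 and 18473), as did ranking by fold enrichment (15764 and 16864). Scaling by the median turned the order for both compounds, with 8322 higher and 8850 lower for NaPr and 12222 and 13335 for NaBu. So did the refit on regions with a peak in all 6 untreated libraries, with 4123 and 5798 for NaPr and 9357 and 10747 for NaBu. The main NaPr counts were 8832 and 7193.

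Opposite changes were found at 83 regions where NaPr was higher and NaBu lower (0.0589% of tested regions) and at 146 with the reverse (0.104%). The former lay nearest to 82 genes and had a median NaPr change of 17.7 points and a median NaBu change of −14.5, and the latter lay nearest to 145 genes with medians of −9.78 and 9.82. At 61 of the 83 and 66 of the 146 the treated groups lay closer together than the untreated groups. Of these regions 12 (14.5%) and 28 (19.2%) lay within 1 kb of a protein-coding start, against 19.3% of all tested regions. The split between the directions depended on the scale. Recovered tags scaled by the median gave 264 and 287 opposite regions, scaling by the background gave 47 and 16, and the 50000 strongest intervals gave 55 and 133.

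By far the widest difference in this set was in the intron of BCL2L1, which codes for the apoptosis inhibitor BCL-xL. The rank was 0 in all 3 Pr-untreated libraries and 56.8, 44.8 and 49.6 with NaPr, and it was 91.7, 92.1 and 92.5 in the Bu-untreated libraries and 0 in all 3 with NaBu. NaPr thus raised the region where NaBu removed its peak, and no group overlapped its control. The difference was 142.5 ± 5.2 points (SE, adjusted p = 1.3e-05). The same layout was seen 5.87 kb from the start of HES4 (chr1:993159-994107), a Hes-family repressor, with ranks of 50.3, 32.8 and 49.1 under NaPr and 54.3, 36.8 and 41.3 in Bu-untreated cells, and 0 in the other 6 libraries. Narrow regions at the starts of GTPBP2, a GTPase of ribosome rescue (chr6:43627310-43627517), and TBC1D16, an activator of Rab GTPase hydrolysis (chr17:79992948-79993068), also had a peak in every NaPr and Bu-untreated library and in no other. Their differences were 87.3 ± 7.1 and 82.9 ± 5.7 points (adjusted p = 3.7e-05 and 2.1e-05). Further regions of this kind lay near SLC38A9, the lysosomal arginine sensor of mTORC1 (chr5:55602777-55603036, difference 83.3 ± 4.4), in the intron of the ubiquitin ligase gene TRIM37 (chr17:59004974-59005164, 81.5 ± 14.5), and far from TRIB1, a pseudokinase gene (chr8:125506053-125506162, 99.8 ± 13), and COBL, an actin nucleator (chr7:51545153-51545485, 79.1 ± 12.7). In the last 3 regions 1 library broke the pattern, namely NaBu replicate 3 at TRIM37 with a rank of 42.5, Pr-untreated replicate 3 near TRIB1 with 39.9 and NaBu replicate 2 near COBL with 38.0.

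The reverse was widest 171 kb from the start of TMEM196 (chr7:19944465-19945098). The ranks there were 57.7, 44.4 and 45.8 in Pr-untreated cells, 63.9, 41.4 and 61.8 with NaBu, and 0 in all NaPr and Bu-untreated libraries. NaPr therefore removed the peak and NaBu raised one, a difference of −105 ± 8.5 points (adjusted p = 3.6e-05). The intron of FAM204A (chr10:118332322-118332642) followed the same layout, with 47.7, 40 and 53.7 before NaPr, 51.4, 52.5 and 44.7 with NaBu and no peak elsewhere (difference −96.6 ± 5.8, adjusted p = 1.8e-05). LEF1 is a WNT-responsive transcription factor. A region 7.09 kb from its start, inside LEF1-AS1 (chr4:108176044-108176389), had ranks of 56.3, 62.2 and 36.2 before NaPr and 0 in all 3 libraries after it. Before NaBu the ranks were 0, 39.3 and 42.9 and with it 69.3, 66.3 and 70.7, so that the difference was −93.0 ± 14.8 points (adjusted p = 0.0013). Introns of TEAD4, a transcription factor of the Hippo pathway (chr12:2998584-2999626, −79.8 ± 11.9), and IQSEC1, an exchange factor for ARF GTPases (chr3:13273064-13274018, −88.2 ± 11.2), changed in the same sense. So did a region 25.8 kb from ZC3H12A, an RNase that degrades inflammatory transcripts (chr1:37448209-37448789, −88.3 ± 13.8), and introns of SLC22A23 (chr6:3394728-3395248, −90.5 ± 14.2) and PXDNL (chr8:51663595-51664177, −85.3 ± 12.4). All of these 8 kept their call when any 1 library was left out, as did the 8 above.

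**Figure D3:**
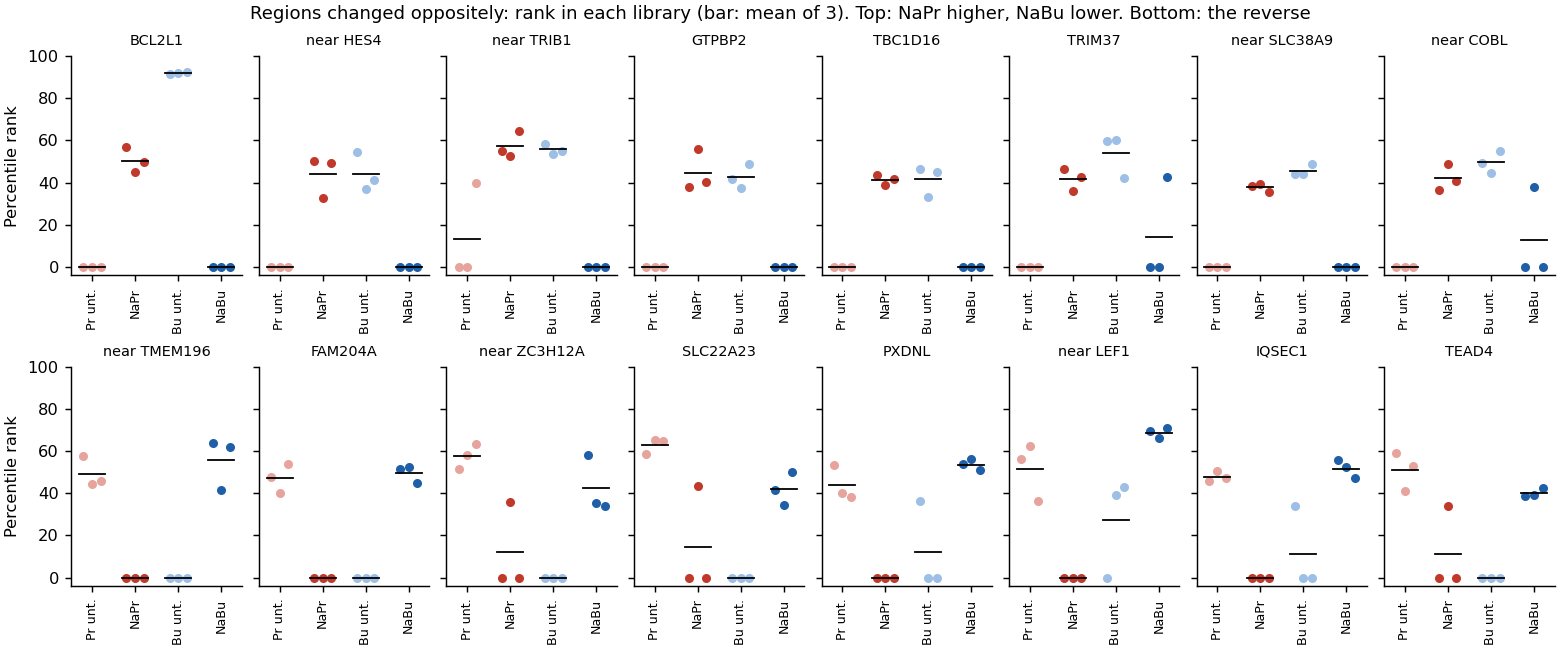
Percentile rank (vertical axis, 0 where no peak) in each library of the 16 regions with the largest opposite changes, 8 with NaPr higher and NaBu lower (top) and 8 with the reverse (bottom). Points are libraries, bars are means of 3, pale points are untreated and dark points treated cells (red NaPr experiment, blue NaBu experiment); at BCL2L1 the Bu-untreated points lie above 91 and the NaBu points at 0.

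Within 1 kb of a protein-coding start, the NaPr effect was the higher at 8.78% and the lower at 5.26% of 27259 tested regions. Among 16190 genes with such a region, the strongest promoter region was called higher at 867 (5.36%) and lower at 617 (3.81%). The largest promoter differences above 0, after GTPBP2 and TBC1D16, included UBA6, PVRIG and LGALS3BP. At UBA6, a ubiquitin-activating enzyme (chr4:67701570-67701786), and PVRIG, a lymphocyte checkpoint receptor (chr7:100220910-100221828), only Bu-untreated libraries had a peak, with ranks of 79.1, 81.5 and 77.6 and of 83.0, 82.9 and 80.3, so the contrast there was the loss of that peak with NaBu where NaPr cells had none to lose. The region at LGALS3BP, a galectin-binding glycoprotein (chr17:78978028-78978207), had peaks in 2 of 3 NaPr libraries and in the 3 Bu-untreated libraries (difference 80.9 ± 12.5).

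The largest promoter differences below 0 were at AK8, CPNE1, TGIF1, ZDHHC18, PIGT and the protein-coding gene ENSG00000268655. At AK8, an adenylate kinase (chr9:132862562-132862923), the ranks of 68.5, 59.9 and 39.6 before NaPr went to 0 in all 3 libraries, while NaBu libraries had 0, 43.6 and 46.7 against no peak before (difference −86.1 ± 16.0, adjusted p = 0.0038). TGIF1 is a homeobox corepressor of TGF-beta signalling. Its region (chr18:3410012-3410761) had a peak in each NaBu library, with ranks of 69.2, 70.8 and 68.0, in none of the Bu-untreated or NaPr libraries and in 1 Pr-untreated library at 44.4. The difference was −84.2 ± 13.9 points (adjusted p = 0.0017). CPNE1 and RBM12 share their first exons, and the region there (chr20:35652852-35653548, −84.3 ± 16.1) cannot be given to either gene. ZDHHC18, a palmitoyltransferase (chr1:26831520-26832461, −80.3 ± 15.9), and PIGT, a subunit of the GPI transamidase (chr20:45443872-45444634, −76.8 ± 18.1), had peaks in every NaBu library and in no Bu-untreated one. The start of ENSG00000268655 (chr19:49020447-49020661) had a peak only with NaBu, at 78.1, 74 and 78.3.

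Away from starts, the regions with the largest differences above 0 besides BCL2L1 and TRIB1 lay near TMC5, MEDAG and MSX2 and far from LZTS1. The last (chr8:20963964-20965117) had a peak only in Bu-untreated libraries, at 91, 90.6 and 89.3. At 25.5 kb from TMC5 (chr16:19384351-19384990) the rank was 42.8, 59.1 and 52.2 with NaPr and 63.6, 58.6 and 65.1 before NaBu, with no peak in any NaBu library and in 1 of 3 Pr-untreated libraries (difference 99.1 ± 14.5, adjusted p = 0.00075). At 190 kb from MSX2, a homeobox gene (chr5:174533772-174534114), and at 75.3 kb from MEDAG (chr13:30830510-30830941) all NaPr libraries and 2 of 3 Pr-untreated libraries had a peak, and NaBu again removed it. The MSX2 call was lost with the 50000 strongest intervals. Below 0, SLIT3 and NT5C1B followed TMEM196, FAM204A, LEF1 and SLC22A23. In the intron of SLIT3, which codes for a guidance ligand (chr5:168746903-168747619), NaBu libraries ranked 56.7, 66.0 and 70.3 against no peak before, and the peaks of 37.5 and 43.6 in 2 of 3 Pr-untreated libraries were absent with NaPr (difference −91.3 ± 13.3, adjusted p = 0.00073). At 187 kb from NT5C1B (chr2:18777021-18777841) the NaBu libraries ranked 53, 61.2 and 64.7 against no peak before (difference −90.2 ± 15.1).

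The regions above turn on the presence of a peak. For regions with a peak in all 12 libraries, numbers of tags at the summit can be compared, and a further set was taken after the data were seen, namely the 6 regions in each direction with the largest log2 difference among those called on both scales. Of 50620 such regions 3976 were called on both ranks and tags, and 3975 of them in the same direction. The intron of SSPN, a dystrophin-associated membrane protein and one of the genes the study named (chr12:26238897-26240272), ranked 98.5, 97.8 and 97.4 before NaPr and 95.3, 95.4 and 97.0 with it, and 73.5, 75.5 and 75.6 before NaBu and 96.2, 97.2 and 96.7 with it. In tags NaBu raised it by 2.09 on the log2 scale and the NaPr change was −0.31, a difference of −2.40 (adjusted p = 4.2e-12). Regions 12.7 kb from SYTL2, an effector of the vesicle GTPase RAB27 (chr11:85823820-85824368), and 32.0 kb from CPA6 (chr8:67778367-67779453) differed by −2.31 and −2.62, regions near the butyrophilin-like gene BTNL9 (chr5:181035989-181037998) and the glutamine transporter gene SLC1A5 (chr19:46806410-46807328) by −2.32 and −2.31, and one near LINGO1 by −2.11.

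In the other direction all 6 regions fell with NaBu, and those at DMPK and MYT1 also rose with NaPr. At the start of DMPK, the kinase gene of myotonic dystrophy (chr19:45781168-45782551), the ranks were 98.1, 98.3 and 98.2 before NaBu and 78.7, 81.9 and 80.1 with it, and 70.7, 73.2 and 76.1 before NaPr and 87.0, 80.6 and 86.9 with it. The log2 difference in tags was 2.19 (adjusted p = 5.1e-10). Upstream of the endothelin gene EDN3 (chr20:59291408-59292611) NaBu took the ranks from 96.4, 95.9 and 94.4 to 74.0, 79.2 and 79.5, whereas they were 59.8, 65.2 and 65.7 before and 68.5, 72.8 and 70.6 with NaPr (log2 difference 2.16, adjusted p = 2.4e-08). The intron of MYT1, a neural zinc finger factor (chr20:64222128-64222681), moved likewise, from 81.9, 84.1 and 80.7 to 50.8, 57.0 and 49.5 with NaBu and from 66.5, 63.6 and 66.8 to 78.4, 75.4 and 77.1 with NaPr. An exon of FRMD1 (2.48), a PEBP4 intron (2.08) and a start of IQSEC1 (chr3:13022256-13023725, 2.06) showed a fall with NaBu and NaPr changes within 0.27 of 0. The rank difference at the IQSEC1 start (adjusted p = 0.019) was not called with the replicate block (limma, adjusted p = 0.094), with −log10 q of at least 2 (adjusted p = 0.084) or with no filter (adjusted p = 0.18). The intronic region of IQSEC1 described above differed in the opposite sense.

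Region classes differed in which compound was ahead. CpG-rich starts (CpG ratio of at least 0.6 and GC content of at least 55%) numbered 12302, of which 6.55% were called higher and 2.97% lower. The gap came with a fall under NaBu, which lowered 28.5% of them and raised 3.58%, where NaPr lowered 8.69% and raised 1.34%. Among the 11330 of them open in all 6 untreated libraries the shares were 6.51% and 2.61%. They were 10.5% and 2.09% on tags scaled by the median, and 1.76% and 0.121% on tags scaled by the background. Other starts were called higher at 10.6% and lower at 7.14%. This order turned, with 5.11% and 6.78%, among the 6635 of them open in all 6 untreated libraries. Regions off promoters leaned slightly to lower calls, with 8.34% of intronic and 7.60% of intergenic regions called lower against 7.84% and 7.03% called higher, a lean that turned on tags scaled by the background (1.23% and 0.985% lower against 2.43% and 2.29% higher). Regions of under 40% GC were the class most often called higher, at 12.1%, but at 2.93% where all 6 untreated libraries had a peak. Altogether 22.4% of the regions called higher and 13.7% of those called lower lay within 1 kb of a start, against 19.3% of all tested regions, a gap of 8.69 percentage points. Ranking by fold enrichment cut this gap to 3.02 points, tags scaled by the median raised it to 20.7, and leaving out NaBu replicate 1 raised it to 15.3.

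**Figure D4:**
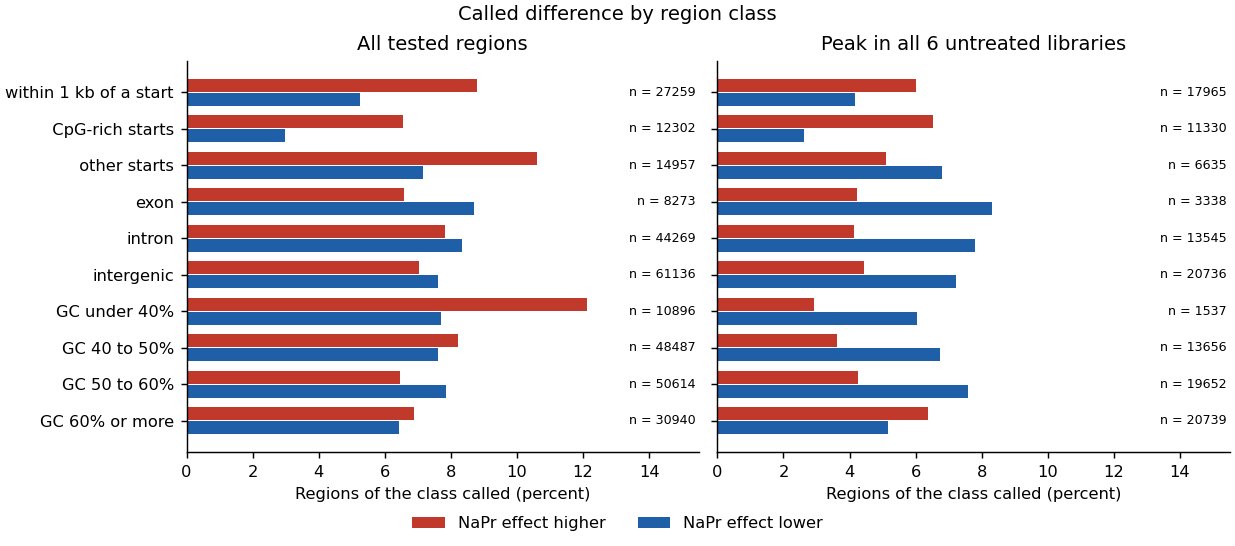
Percent of the regions in each class (horizontal axis) called with a higher (red) or lower (blue) NaPr effect, for all tested regions and for those with a peak in all 6 untreated libraries, with the number of regions in each class. CpG-rich starts show more red than blue on both sides (6.55% against 2.97%, and 6.51% against 2.61%), whereas regions of under 40% GC do so only on the left.

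Motif shares differed between regions that rose and regions that fell with either compound. AP-1 is the dimer of FOS and JUN proteins that binds TGACTCA or TGAGTCA. This motif was found within 100 bp of the summit in 16.1% of tested regions and 12.8% of all merged regions. The motif was in 27.7% of the 2736 regions raised by NaPr alone and in 6.08% of the 2186 lowered by NaPr alone. Regions lowered by both compounds without a called difference held it in 9.65%. Regions raised by both compounds without a called difference held it in 28.8%, those raised by NaBu alone in 20.6% where the NaPr experiment had a peak and 17.3% where it had none, and those lowered by NaBu alone in 14.3% and 8.86%. The E-box CAGGTG, bound by the SNAI and ZEB repressors among others, ran the other way. It was in 22.5% of tested regions, in 37.2% and 32.3% of those lowered by NaBu alone (without and with a peak in the NaPr experiment), in 27.8% of those lowered by NaPr alone and 35.2% of those lowered by both, and in 16.6% of those raised by NaPr alone. Regions raised by NaBu alone held it in 15.7% and 18.6% (without and with such a peak), and those raised by both in 15.7%. By the called difference it was in 30.5% of regions called higher and 19.6% of those called lower. Base composition moved with these shares, with a median GC content of 50% in the regions raised by NaPr alone, 55.5% in those lowered by it and 51.5% in all tested regions, and its part in the shares was not tested.

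The 83 and 146 opposite regions differed along the same motifs. Those with NaPr higher and NaBu lower held AP-1 in 28.9% and CAGGTG in 42.2%, and the reverse set in 11.6% and 19.2%. The RUNX motif TGTGGTT was in 8.43% of the former and 15.1% of the latter, against 8.25% of tested regions, and the GATA motif AGATAA in 2.41% and 11%. CTCF, the insulator protein, had its motif in 7.15% of regions raised by both compounds, 3.67% of those raised by NaBu alone with a peak in the NaPr experiment, 1.46% of those raised by NaPr alone, 0.817% of those raised by NaBu alone without one and 3.69% of tested regions.

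**Figure D5:**
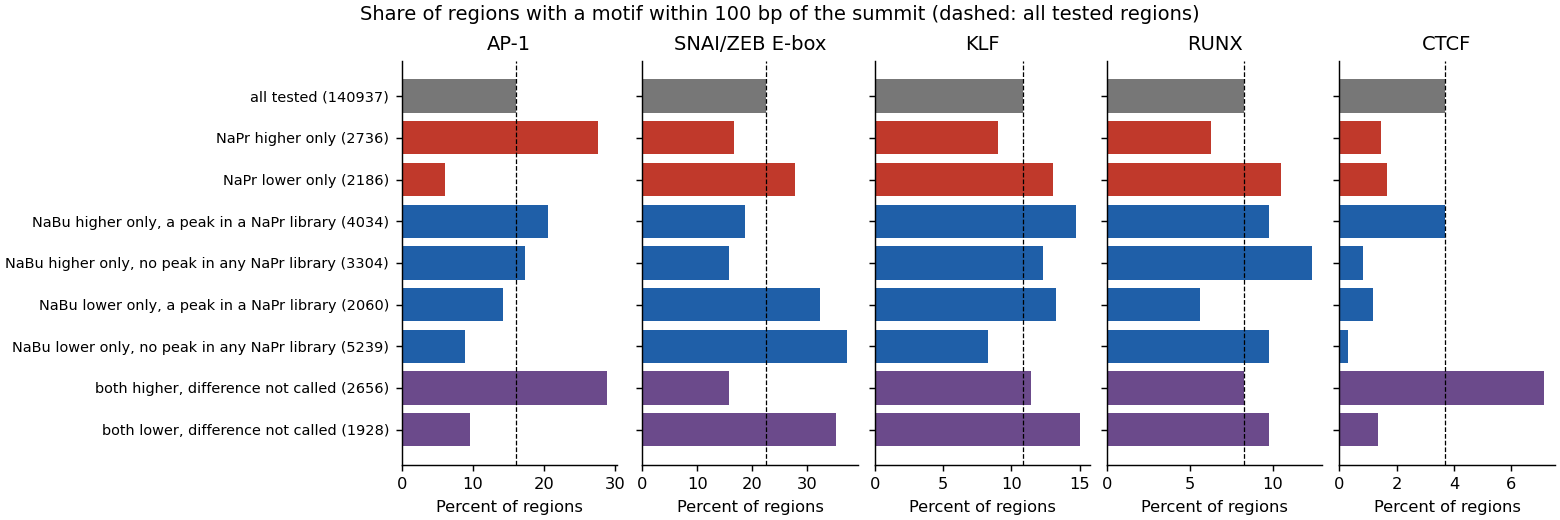
Percent of regions (horizontal axis) with a motif match in the 200 bp around the summit, by how the compounds changed the region, with the number of regions in brackets. Grey is all tested regions (also the dashed line), red NaPr alone, blue NaBu alone and purple both; AP-1 is at 27.7% in regions raised by NaPr alone and 6.08% in those lowered by NaPr alone.

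A further set of tested regions had no peak in any untreated library, though the limit of the list differed between libraries. These 8061 regions could only rise, and each was tested only because 3 or more treated libraries had a peak there. The counts of calls are therefore no evidence of a direction or of a split between the compounds. NaPr was called higher at 2596 of them and NaBu at 4283, and 518 were called for both. The regions opened by NaPr alone with a called difference (1623) held AP-1 in 24.6%, RUNX in 5.36%, the TCF/LEF motif CTTTGAT in 2.90%, the FOX motif TGTTTAC in 2.22% and GATA in 7.52%. Those opened by NaBu alone with a called difference (2744) held AP-1 in 17.6%, RUNX in 11.7%, TCF/LEF in 6.81%, FOX in 5.61% and GATA in 10.6%. The sites opened by NaBu alone were the richer in AT, with a median GC content of 46.0% against 50.5%. By presence alone, 3656 merged regions had a peak in all NaPr and no Pr-untreated library and 7929 in all NaBu and no Bu-untreated library, with 506 shared, which is 13.8% of the former and 6.38% of the latter. Each share was larger than the share of all 252173 merged regions that the other compound gained. Merged regions with a peak in fewer than 3 libraries, or in an untreated library of that experiment, could not be gained. The comparison therefore does not measure sharing. Complete losses numbered 1860 and 4599, and 5 regions were gained with NaPr and lost with NaBu and 4 the reverse.

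Differing regions were also counted by gene, beside the 15.0% of all tested regions that were called. Of 2668 protein-coding genes with at least 10 tested regions in the gene or within 5 kb of it, 1014 had more regions called higher than lower and 992 the reverse. The largest excess of higher calls was at RUNX1, a transcription factor of blood and epithelium, with 19 higher and 8 lower of 130 regions. NaBu lowered 29 and raised 18 of these and NaPr lowered 9 and raised 7. At HDAC4, a class II histone deacetylase, 9 regions were called higher and 2 lower of 67, with 23 lowered and 5 raised by NaBu and 5 lowered and 1 raised by NaPr. Its promoter region did not differ detectably, with a difference of −0.3 points (95% interval −2.7 to 2.2). LRCH1 had 9 higher and 0 lower of 30, the protocadherin gene PCDH9 10 and 1 of 18, GSE1 13 and 5 of 111, the scaffold gene MAGI1 8 and 1 of 43, the calcium channel gene CACNA1C 9 and 2 of 73, BCAR3 11 and 4 of 62, the phospholipid flippase gene ATP10A 7 and 0 of 20, and ENSG00000285218 10 and 2 of 45.

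At each of the 10 genes with the largest excess of lower calls NaBu raised more regions than NaPr did. As they were chosen by their lower calls, and NaBu raised 14.6% of all tested regions against 6.27% for NaPr, this was no separate result. At the 10 genes with the largest excess of higher calls NaBu likewise raised no fewer regions than NaPr. SH3PXD2A, which codes for the podosome scaffold TKS5, had 0 higher and 8 lower of 46, with 11 regions raised by NaBu and 2 by NaPr, and 8 lowered by NaPr. MAGI2, the paralogue of MAGI1, had 0 and 8 of 35, the collagen gene COL26A1 1 and 9 of 37, and EGFR, the epidermal growth factor receptor, 1 and 7 of 24, with 9 of its regions raised by NaBu and 2 by NaPr. CERS6, a ceramide synthase, had 1 and 8 of 28, KALRN, an exchange factor for small GTPases, 1 and 8 of 57, AGAP1 4 and 11 of 64, the homeobox gene CUX1 3 and 10 of 56, the zinc transporter gene SLC39A11 0 and 7 of 36, and ENSG00000255872 4 and 10 of 59.

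Gene lists were described by their counts, beside the 15.0% of all tested regions that were called, and by the median difference of their regions, which ran from −1.74 points (actin and focal adhesion) to 2.08 (fatty acid entry and sensing) against −0.33 over all tested regions. The median lay below 0 although more regions were called higher for deacetylase-inhibitor response genes, MAPK feedback, intestinal transcription factors, enterocyte markers, fatty acid synthesis and the genes the study named, and above 0 although more were called lower for cell cycle genes. Where another scaling turned the order of a list's counts, those counts are given. Genes of fatty acid entry and sensing (8 of 13 genes with a tested region, 41 regions) had 5 regions called higher and 3 lower, and 2 and 3 on tags scaled by the median. BSG is the chaperone of the monocarboxylate transporters, and its strongest promoter region fell with NaBu from 64.5, 63.2 and 66.1 to 41.8, 35.1 and 45.9 and stood at 78.3, 85.5 and 79.2 before and 84.1, 78.4 and 75.6 with NaPr (difference 22.0 ± 4.8, adjusted p = 0.011). SLC16A3, which exports lactate, likewise had a promoter that fell with NaBu alone (difference 5.9 ± 1.5, adjusted p = 0.019). SLC16A4 had one that fell with NaPr, from 95, 92.1 and 91.4 to 88.7, 82.0 and 83.0 (difference −8.2 ± 2.3, adjusted p = 0.037), a call that leaving out 1 of 9 libraries ended. At the promoter of SLC16A1, the main carrier of both acids, the difference was 5.3 points with a 95% interval of 0.2 to 10.3 and an adjusted p of 0.16.

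For the breakdown of propionate (17 genes, 104 regions) 9 regions were higher and 8 lower, and 9 and 10 with ranks among regions with a peak. A region 643 bp from the start of HIBADH, an enzyme of valine breakdown (chr7:27663526-27664052), had a peak only in NaBu libraries, at 69.8, 77.4 and 77.4 (difference −74.9 ± 4.7, adjusted p = 1.9e-05). An intron of PCCA, a subunit of propionyl-CoA carboxylase (chr13:100439384-100439515), had one only in Bu-untreated libraries, at 61.6, 73.1 and 73.1. HIBCH, which acts just before HIBADH in the same pathway, gained an intronic peak with NaPr, at 40.2, 41.7 and 48.3 against 0 in all 3 Pr-untreated libraries, and ranked 68.1 to 75.9 before and 73.6 to 75.6 with NaBu (chr2:190277368-190277923, 42.0 ± 5.1, adjusted p = 0.00024), a difference that turned to −2.79 with the 50000 strongest intervals of each library. Butyrate oxidation and ketone bodies (17 genes, 84 regions) had 6 and 8. There a region 396 bp from the start of CPT1A, the gate of fatty acid entry into mitochondria (chr11:68840080-68840418), had a peak only in Bu-untreated libraries, and a region 2.1 kb from the start of ETFB, an electron carrier of fatty acid oxidation (chr19:51350629-51351340), was raised by both compounds, from 0 to 74.7, 63.2 and 59.2 by NaPr and from 45.6, 40.3 and 45.7 to 65.4, 66.2 and 66.0 by NaBu.

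Histone deacetylases and their corepressors (22 genes, 262 regions) had 29 regions called higher and 19 lower. On tags scaled by the median they had 10 and 10, on tags scaled by the background 1 and 2, and with ranks among regions with a peak 27 and 30. At the start of MTA2, a NuRD subunit (chr11:62599146-62599507), a narrow region had no peak in Bu-untreated cells and ranked 67.3, 75.3 and 70.5 with NaBu, against 70.8, 75.4 and 75.9 before and 73.3, 73.9 and 72.4 with NaPr (difference −71.8 ± 4.4). A region at a start of CHD4, the NuRD remodelling enzyme (chr12:6605441-6606966), went from 81.4, 85.5 and 85.3 to 0 in all 3 libraries with NaBu and from 74.0, 84.3 and 76.6 to 58.2, 68.7 and 66.4 with NaPr (70.2 ± 5.4, adjusted p = 2.8e-05), a call lost with the 50000 strongest intervals (adjusted p = 0.071). At the strongest promoter region of CHD4 no difference was called. MTA1 gained with NaBu alone, from 50.9, 55.7 and 56.0 to 80.6, 81.0 and 79.5. Acetyltransferases and acyl readers (19 genes, 108 regions) had 10 and 4, among them the promoter of BRD3, an acetyl-lysine reader, which fell with NaBu from 85.5, 79.5 and 84.1 to 66.1, 59.3 and 62.7 (16.4 ± 3.2, adjusted p = 0.0049).

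Genes that respond to deacetylase inhibitors (6 genes, 51 regions) had 6 regions called higher and 3 lower, and 3 and 4 with ranks among regions with a peak. DHRS2, a short-chain dehydrogenase, had a promoter region (chr14:23638828-23640021) at 44.8, 37.6 and 46.6 with NaPr and no peak in the other 9 libraries (43.0 ± 4.9, adjusted p = 0.00017). CDKN1A codes for the cell cycle inhibitor p21. A region of 106 bp inside its 1 kb window (chr6:36677281-36677386) behaved the same, at 42.9, 45.2 and 36.5 with NaPr only, whereas at its strongest promoter region the difference was −2.1 points with an interval of −6.8 to 2.6. The paper reports reduced accessibility with NaPr at a CDKN1A site whose coordinates its text does not give. An intron of GSN, the actin-severing protein gelsolin (chr9:121292957-121293217), again had a peak only with NaPr. These 2 calls, of GSN and CDKN1A, ended when ranks were taken among regions with a peak.

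AP-1 family genes (15 genes, 87 regions) had 8 regions called higher and 2 lower, 11.5% in all against 15.0% of all tested regions. On recovered tags they had 13 and 0 of 41 with scaling by the median and 4 and 0 with scaling by the background. Over all 50620 regions with tags these scalings called 4145 and 3715, and 1119 and 453. JUND fell with NaBu, from 78.7, 77.5 and 80.6 to 65.5, 63.7 and 57.0, and stood at 92.0, 96.0 and 94.8 before and 95.4, 94.6 and 94.7 with NaPr (17.5 ± 2.8, adjusted p = 0.0015). An exon of FOSL1 (chr11:65892330-65892607), 1.66 kb from the start of CCDC85B, went from 0 in all 3 libraries to 54.6, 66.9 and 63.4 with NaPr and lay between 72.5 and 82.6 in the NaBu experiment, and was not called for NaBu. With the 50000 strongest intervals this difference was 0.23 (adjusted p = 0.99). At the strongest promoter regions of JUN and FOS the differences were −1.0 (interval −3.6 to 1.7) and 2.8 points (−2.6 to 8.3). Krüppel-like factor genes (13 genes, 100 regions) had 11 and 7, and 7 and 8 by fold enrichment. The KLF2 promoter fell with NaBu from 84.2, 87.6 and 83.6 to 74.0, 48.5 and 57.6 and had 95.1, 94.8 and 96.2 before and 94.7, 93.3 and 93.0 with NaPr (23.4 ± 6.8, adjusted p = 0.045). The paper reports greater accessibility with NaPr at a KLF2 site whose coordinates its text does not give. MAPK feedback genes (17 genes, 119 regions) had 12 and 7, and regions within 1 kb of the starts of the sprouty genes SPRY2 (chr13:80341865-80341989) and SPRY4 (chr5:142323433-142323596) had peaks only in Bu-untreated libraries.

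WNT targets and TCF factors (17 genes, 266 regions) had 31 regions called higher and 27 lower, by fold enrichment 22 and 23, and their promoters split by gene. NOTUM, a secreted WNT inhibitor, fell with NaBu from 62.1, 64.7 and 53.8 to 35.2, 0 and 0, against 74.0, 74.3 and 80.5 before and 82.6, 85.9 and 75.6 with NaPr (53.5 ± 11.9, adjusted p = 0.011). NKD1, another inhibitor of the pathway, went the other way. Its promoter fell with NaPr from 93.0, 94.3 and 93.8 to 90.2, 91.6 and 88.3 and rose with NaBu from 90.3, 91.0 and 90.5 to 94.0, 93.4 and 93.1 (−6.6 ± 1.1, adjusted p = 0.0016). The promoters of TCF7L1 and TCF7L2, TCF factors of the pathway, were called lower too (−2.3 ± 0.6 and −8.9 ± 2.2). An intron of TCF7L2 (chr10:112981480-112982092) gained a peak with NaBu, at 59.0, 59.5 and 48.0 against 0 in all 3, and fell with NaPr from 75.2, 72 and 72.6 to 59.3, 50.8 and 59.8 (−72.1 ± 5.9). SP5, a direct WNT target, lost a region 820 bp from its start (chr2:170716862-170717319) with NaBu, from 72.5, 71.9 and 60.7 to 0 in all 3, and ranked 85.1 to 88.5 in the libraries of the NaPr experiment (66.4 ± 4.6), a call lost with the 50000 strongest intervals (adjusted p = 0.24), while at its strongest promoter region the difference was −1.2 points (interval −3.9 to 1.5).

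TGF-beta pathway genes (16 genes, 160 regions) had 24 regions called higher and 12 lower, 22.5% in all. SMAD3, a signal transducer (chr15:67062526-67062740), and BAMBI, a decoy receptor (chr10:28678615-28678816), had regions with a peak only in Bu-untreated libraries, and an intron of the inhibitory SMAD6 (chr15:66721611-66721953) gained one with NaBu, at 59.5, 64.8 and 68.4 against 0 in all 3. Actin and focal adhesion genes (24 genes, 297 regions) had 28 and 38, an order that turned on recovered tags (17 and 13 with scaling by the median, 3 and 2 with scaling by the background). The promoter of ROCK2, a kinase of the actin cytoskeleton, fell with NaBu from 89.5, 87.9 and 88.0 to 77.4, 76.4 and 74.2 (11.2 ± 1.7, adjusted p = 0.00091), and that of ZYX, the adhesion protein zyxin, fell with NaPr (−2.9 ± 0.8). An MYH9 intron (chr22:36360855-36361497) had a peak only in Pr-untreated libraries, at 56.7, 56.3 and 58.4.

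Cell cycle genes (16 genes, 78 regions) had 6 regions higher and 7 lower, and 6 and 0 on tags scaled by the median. A CCND1 intron, in the cyclin D1 gene (chr11:69645346-69645654), lost its peak with NaPr, from 58.6, 57.0 and 55.2 to 0 in all 3, and had none in the NaBu experiment (−56.9 ± 4.3), and the CCND3 promoter fell with NaBu (7.9 ± 1.8, adjusted p = 0.014). Intestinal transcription factor genes (17 genes, 107 regions) had 10 and 6, but 5 and 6 on tags scaled by the median and 7 and 8 with ranks among regions with a peak. SOX9 marks crypt progenitors, and its promoter rose with NaPr from 87.6, 87.4 and 86.0 to 92.7, 91.2 and 93.5, and stood at 95, 95.3 and 94.4 before and 95.1, 91.0 and 94.0 with NaBu (7.0 ± 1.4, adjusted p = 0.007). PPARG, a fatty acid receptor, had a promoter that fell with NaBu and had ranks of 87.8, 88.0 and 90.9 before and 95.1, 92.1 and 92.1 with NaPr (10.9 ± 2.5, adjusted p = 0.014). At CDX2 the promoter difference was −0.6 points (interval −3.8 to 2.6). Enterocyte markers (19 genes, 73 regions) had 8 and 4, but 1 and 5 on tags scaled by the median and 4 and 7 with ranks among regions with a peak. On tags scaled by the background they had 0 and 1. The promoter of the brush border peptidase gene ANPEP fell with NaBu from 55.7, 55 and 63.6 to 28.9, 0 and 0 (51.3 ± 12.1, adjusted p = 0.016), and that of MYO1A, a brush border myosin, fell with NaPr from 77.1, 58.7 and 63.9 to 49.5, 48.3 and 40.1 (−31.0 ± 7.1, adjusted p = 0.014). Genes of the epithelial-mesenchymal transition (14 genes, 74 regions) had 9 and 4. A region 4.64 kb from EPCAM, an epithelial adhesion gene (chr2:47340119-47340519), had a peak only with NaPr, at 63.0, 55.9 and 59.0 (59.3 ± 4.5, adjusted p = 2.9e-05). A region near the start of VIM, the mesenchymal filament gene (chr10:17231359-17231586), had one only with NaBu, at 51.7, 44.9 and 49.6, and the ZEB2 start (chr2:144402207-144402538) only in Bu-untreated cells.

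Among metabolic and stress lists, the citrate cycle (16 genes, 86 regions) had 16 regions called higher and 5 lower, 24.4% in all, and on tags scaled by the median 7 and 4. Regions at FH, IDH3A, OGDH and SDHB each had a peak only in Bu-untreated libraries. The promoter that SDHA, a succinate dehydrogenase subunit, shares with CCDC127 fell with NaBu from 96.6, 98.4 and 98.6 to 91.9, 91.0 and 91.0 (4.2 ± 1.0, adjusted p = 0.022). Fatty acid and cholesterol synthesis (19 genes, 109 regions) had 9 and 6. The FASN promoter, of the fatty acid synthase gene, fell with NaBu from 78.7, 80.6 and 77.2 to 67.0, 52.2 and 59.1 and had 95.2, 96.2 and 94.4 before and 97.6, 93.5 and 95.7 with NaPr (19.7 ± 4.2, adjusted p = 0.0087). Unfolded protein and stress response genes (14 genes, 76 regions) had 4 and 2, or 0 and 1 on tags scaled by the background, with CHAC1 called higher at its promoter (5.4 ± 1.1), and an intron of the stress kinase gene EIF2AK3 (chr2:88599654-88600694) rose with NaPr from 75.4, 79.1 and 78.8 to 90.6, 89.9 and 88.2, against 92.7, 89.7 and 89.8 before and 93.0, 94.4 and 93.4 with NaBu (9.0 ± 1.7, adjusted p = 0.0041). NF-kB and chemokine genes (15 genes, 47 regions) had 2 and 1, or 0 and 1 with ranks among regions with a peak, the smallest share of any list at 6.38%. The 15 genes named by the study (212 regions) had 26 and 22, but 8 and 11 on tags scaled by the median and 19 and 26 with ranks among regions with a peak, and as they were chosen on these samples they are no independent evidence. Among them a SEMA3D exon (chr7:85036853-85037317) had a peak only in Bu-untreated libraries, a COL26A1 intron (chr7:101498312-101498882) only in Pr-untreated ones, and a MYC exon (chr8:127742313-127742453) only with NaBu, at 69.4, 58.4 and 66.0. The paper reports the reverse for the first genes, a gain at SEMA3D with NaBu and at COL26A1 with NaPr. Its text gives no coordinates for those sites, so the regions here may be other ones.

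Single values of each library were compared by exact permutation tests (two-sided), which with 3 against 3 cannot give a p under 0.1. The share of intervals within 1 kb of a start was 22.5% ± 1.0 (SD, n = 3) before and 21.8% ± 1.1 with NaPr, and 24.7% ± 0.22 before and 22.2% ± 0.19 with NaBu. The NaBu change was −2.49 percentage points and the NaPr change −0.764, and they differed by 1.73. The test of such a difference takes treated minus untreated by replicate number (exact permutation p = 0.1 here), and as nothing shows that these numbers pair the libraries, its p depends on that choice. The share of intervals with an AP-1 motif went from 12.3% ± 0.84 to 14.8% ± 0.77 with NaPr and from 14.0% ± 0.32 to 15.6% ± 0.30 with NaBu. Each change had an exact permutation p of 0.1, the smallest possible. Their difference of 0.855 points had the same p by replicate number and 0.2 (exact permutation) with −log10 q of at least 2, and it was 0.444 without NaPr replicate 3 and 1.33 without Pr-untreated replicate 3. The median GC content of intervals changed by −1 point with NaPr and −0.333 with NaBu (exact permutation p = 0.3 for the difference), and the CTCF share by −0.0403 and −0.173 points (p = 0.2, exact permutation). The mean number of intervals was 5405 larger with NaPr and 11623 larger with NaBu than in untreated cells (exact permutation p = 0.3 for the difference), and the order of the compounds turned without Pr-untreated replicate 1 or NaPr replicate 3.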

How the data were processed

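ATAC-seq peak lists of 12 SW480 libraries were analysed. The authors aligned reads to GRCh38 with Bowtie2 and called peaks with MACS2, and deposited 1 list per library. The submitters' processing notes name versions 2.3.1 and 2.1.0 of these tools and also list cutadapt 1.9.1 and bcl2fastq 2.17.1. The number of reads in each library was not given in the sources used here. The deposited lists give the fold enrichment of each summit as a ratio over local background, and its −log10 p and −log10 q. The CT26 files were not used here.

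Intervals overlapping by at least 1 bp were merged, and those marked in 3 or more libraries were ranked within each library by −log10 p. Ranks were fitted with limma 3.58.1 (lmFit, contrasts.fit and eBayes with trend; R 4.3.3) over all 12 libraries as 4 groups. P-values are two-sided, adjusted by Benjamini-Hochberg over all 140937 regions, and called below 0.05. With 3 libraries per group the median half-width of the 95% interval of a difference was 18.3 percentile points, and 7.35 for regions with a peak in all 12 libraries. In a simulation of the difference on 16876 regions, 71.5% of 200 regions changed by 1.5 on the log2 scale each way were called, with 7 false calls among 150. The simulated untreated groups had the same mean at every region, unlike those of the data, so these rates do not carry over to the calls above. Tags at the summit were solved from fold and p, and compared as log2 of the scaled tags plus 1.

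Regions were placed on GENCODE 44, a promoter being within 1 kb of a protein-coding transcript start, and 20 motifs were sought on both strands in 200 bp around the summit. A gene's regions are those in its body or within 5 kb, and a region in the list text is that with the smallest adjusted p of the gene, or its strongest promoter region. Named regions were the 8 opposite ones in each direction with the largest smaller change, the 6 largest differences in each direction at promoters and elsewhere, 1 per gene, the 10 genes in each direction with the largest excess of calls, and in each list up to 4 genes with the smallest adjusted p and the called promoters. The 6 named regions a direction with a peak in all 12 libraries, and the EPCAM sequence, were chosen after their values were seen. All comparisons, members and the 21 gene lists were chosen with earlier results of these data known. Alternatives were another ranking value, stricter and looser filters, tag counts, a replicate block, array weights and leaving out each library. Some items that the naming rules select are not reported here.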

Additional observations from a re-analysis of the deposited data

How the results depend on the processing

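Of 21193 called differences, 13981 were left with the 50000 strongest intervals of each library, 9056 with a peak required in at least 6 libraries, 7860 and 1572 on recovered tags scaled by the median and by the background, 7891 with untreated ranks within 10 points and 5251 with a peak in all 6 untreated libraries (added after the data were seen). In all of these settings fewer regions were tested. The 16025 NaPr calls became 10077 with no filter, 6667 on tags scaled by the background, 8937 with untreated ranks within 10 points and 9921 with a peak in all 6 untreated libraries. The 39104 NaBu calls became 22346 with the strongest intervals, 25557 and 15217 on tags, 16350 with like untreated ranks and 20104 with a peak in all 6 untreated libraries. The 229 opposite regions became 90 with no filter, 551 and 63 on tags and 142 with like untreated ranks. The promoter gap of 8.69 percentage points was 3.02 by fold enrichment, 6.79 with the strongest intervals, 10.4 with 6 libraries, 7.63 with ranks among regions with a peak, 20.7 and 14.1 on tags, 10.3 with like untreated ranks and 20.7 with a peak in all 6 untreated libraries. With the strongest intervals NaPr gained 1440 regions, NaBu 3382 and both 174, the difference in GC content turned to 0.333 and that in CTCF share to −0.614. Leaving out 1 library gave promoter gaps of 7.01 to 15.3, differences in interval number of −13703 to 2246 and in CTCF share of −0.0799 to 0.336. It gave 19458 to 21865 called differences and 184 to 308 opposite regions. Except where stated, the cause was not tested.

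A fit with the replicate number as a block gave 17391 called differences, 150 opposite regions and a promoter gap of 10.2, and 3 of the 124 named regions lost their call. The labels do not say that a number marks a shared culture or day, and correlations of same-numbered libraries' deviations lay between 0.00612 and 0.0366, so the numbers were not taken to pair the libraries.

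Of the 124 named regions, the direction turned only with the strongest intervals, at 5, where HIBCH was −2.79, MLLT1 18.4, CDKN1B 24.4, RHOB 18.9 and DUSP4 −4.35, against 42.0, −38.3, −35.3, −50.4 and 58.9. Ranking among regions with a peak ended 23 calls, and each library left out ended 1 to 3. The reads of each library are not known, so no counting interval could be given.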

Other observations

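The untreated cultures differed by chromosome as well as by region. The mean rank of Pr-untreated minus Bu-untreated cells was −14.8 points on chromosome 18, −13.8 on chromosome 14 and −12.3 on chromosome 4, and 9.97 on chromosome 17. The mean difference between the compounds' effects stayed within 3.23 points of 0 on every chromosome, with the values farthest from 0 on chromosome 7 (−3.22) and chromosome 19 (−2.45).

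The 5239 regions lowered by NaBu alone that had no peak in any library of the NaPr experiment differed in make-up from all tested regions. Their median width was 326 bp against 672 bp for all tested regions, and their median GC content 46.0% against 51.5%. The CTCF motif was in 0.305% of them and the AP-1 motif in 8.86%, against 3.69% and 16.1% of tested regions. The HNF4 motif CAAAGTCCA was in 1.79% against 0.609%, the FOX motif in 6.07% against 3.51%, the GATA motif in 10.2% against 7.66% and CAGGTG in 37.2% against 22.5%. The 2060 regions lowered by NaBu alone with a peak in the NaPr experiment were wider, at 1140 bp, with a median GC content of 61.0%, and 43.3% of them lay within 1 kb of a start against 20.5% of the 5239.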
